A study of Homo sapiens with 4 samples.

Results

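The genes described here act on 5-azacytidine, on its deoxy form or on their phosphates. They are 10 genes whose products carry the drug into the cell, phosphorylate or deaminate it or its deoxy form, or hydrolyse its deoxy triphosphate. They were chosen for these functions, with earlier results of these data known. Matching of the probes' RefSeq accessions found 12 probes for the 10 genes, of the 50594 probes read on each array. Of these, 10 probes of 9 genes gave a signal well above background on all 4 arrays, as did 19809 probes of the whole array, which stand for 15708 genes or unnamed transcripts. SLC28A3 had no such probe, so that the counts and medians given here cover 9 of the 10 genes.

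RNA came from HCT116, a human colorectal carcinoma cell line, of which MG cells are the subpopulation that migrated through a transwell membrane over repeated rounds of selection and non-MG cells the subpopulation that stayed behind. Each subpopulation received vehicle (control in the labels) or 5 µM 5-azacytidine for 48 h, and each of the 4 conditions was hybridized to 1 one-colour Agilent array with 400 ng of RNA. Both subpopulations derive from 1 line and carry no introduced allele. The question addressed was whether the transcripts that handle the drug differ between MG and non-MG cells, which received the same dose.

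5-azacytidine is a cytidine analog with a nitrogen in the pyrimidine ring. Equilibrative and concentrative nucleoside transporters bring it into the cell, and uridine-cytidine kinases add the first phosphate, the step usually regarded as limiting. After the next phosphate, most of the drug goes into RNA, whereas ribonucleotide reductase converts a part to the deoxy form, which enters DNA and traps DNA methyltransferases, so that methylation of CG sites is lost as cells divide. Deaminases turn cytidine analogs into uridine analogs and thus remove the drug.

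The 4 arrays shared 1 slide. Row 1 held the non-MG and row 2 the MG cells, and column 3 held vehicle and column 4 held 5-azacytidine, so that the effects of slide position and of the conditions cannot be told apart. Between 21384 and 21882 probes per array were well above background, the 75th percentile of intensity lay between 75.2 and 98.7, and no spot was saturated. Among 8 colon epithelial markers, all 4 arrays gave a signal well above background for 7, and none for VIL1. Of the leukocyte markers PTPRC and CD3E were well above background on no array, as were the endothelial markers PECAM1 and CDH5 and the fibroblast markers COL3A1, DCN and LUM, whereas CD14, VWF and COL1A1 were detected on all 4. Conditions were not tested against each other, since each had 1 array, and a fit that assumes the same treatment effect in both cells was not run. Most differences are therefore set beside a spot error, and some also beside a larger error. The spot error is the median SD between spots of probes printed 10 times at the same intensity, reduced where several spots are averaged. The larger error, called the software error, is the one that the scanner software estimated for each spot. Both leave out the differences between cultures and labellings. In RNA of whole cultures, fewer cells with a transcript and less transcript per cell cannot be told apart.

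In DNA, 5-azacytidine acts on the methylation of CG dinucleotides, and each CG is therefore in capitals in the promoters shown. They are those of the genes with the largest differences between MG and non-MG cells, described below, and of CDA. CDA had the fewest CG of the 8 members with a promoter sequence. Whether CG content is related to these differences was not tested. Each stretch runs 5′ to 3′ from 250 bases before to 50 bases after an annotated start, as RefSeq gives it for GRCh38.p14. The promoter of DCK lies at chr4:70993399-70993698 on the plus strand, those of SLC29A1 at chr6:44219365-44219664 and chr6:44223345-44223644 on the plus strand, that of UCK1 at chr9:131531214-131531513 on the minus strand, and that of CDA at chr1:20588847-20589146 on the plus strand.
DCK: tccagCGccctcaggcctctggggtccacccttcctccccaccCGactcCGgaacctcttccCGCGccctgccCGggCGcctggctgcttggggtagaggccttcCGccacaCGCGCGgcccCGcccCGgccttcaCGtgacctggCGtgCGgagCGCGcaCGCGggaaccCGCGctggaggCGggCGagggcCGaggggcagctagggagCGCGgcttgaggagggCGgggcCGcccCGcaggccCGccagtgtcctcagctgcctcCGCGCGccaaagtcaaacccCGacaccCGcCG
SLC29A1, start 1: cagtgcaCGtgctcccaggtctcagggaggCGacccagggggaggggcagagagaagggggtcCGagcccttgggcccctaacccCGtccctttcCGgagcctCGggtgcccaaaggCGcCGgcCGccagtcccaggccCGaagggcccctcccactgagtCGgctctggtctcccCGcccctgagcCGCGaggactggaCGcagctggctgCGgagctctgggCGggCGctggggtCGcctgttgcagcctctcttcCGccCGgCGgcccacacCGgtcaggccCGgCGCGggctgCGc
SLC29A1, start 2: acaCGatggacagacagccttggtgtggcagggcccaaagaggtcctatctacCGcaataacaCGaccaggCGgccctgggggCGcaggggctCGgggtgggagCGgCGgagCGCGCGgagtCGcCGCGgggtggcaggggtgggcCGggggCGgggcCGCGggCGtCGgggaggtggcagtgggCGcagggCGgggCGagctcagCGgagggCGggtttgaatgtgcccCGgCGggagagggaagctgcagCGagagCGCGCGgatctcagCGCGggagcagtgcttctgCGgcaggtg
UCK1: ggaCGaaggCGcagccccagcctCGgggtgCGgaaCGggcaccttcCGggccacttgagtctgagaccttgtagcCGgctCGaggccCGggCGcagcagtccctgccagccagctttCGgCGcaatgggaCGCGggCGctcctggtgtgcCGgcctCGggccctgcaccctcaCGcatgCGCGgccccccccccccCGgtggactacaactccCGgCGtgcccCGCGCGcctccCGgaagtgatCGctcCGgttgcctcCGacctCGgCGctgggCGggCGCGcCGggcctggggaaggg
CDA: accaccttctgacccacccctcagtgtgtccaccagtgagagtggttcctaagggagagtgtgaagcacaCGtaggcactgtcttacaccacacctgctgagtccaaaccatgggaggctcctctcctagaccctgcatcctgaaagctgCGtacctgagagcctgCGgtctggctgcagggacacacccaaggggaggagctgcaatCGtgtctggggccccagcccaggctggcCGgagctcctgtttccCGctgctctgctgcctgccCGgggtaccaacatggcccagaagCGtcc

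The DCK promoter held 37 CG dinucleotides, and 11.28% of 35116 RefSeq promoters of 300 bases held as many or more, with a median of 14 over all of them. UCK1 held 36, with 12.68% of promoters at or above that number. The SLC29A1 promoters held 27 and 34, with 28.16% and 15.59% at or above. These 3 genes thus held more CG than the median promoter, as did UCK2 with 28, CMPK1 with 25, DCTD with 30 and 47 at its 2 starts, and SAMHD1 with 22. CDA stood apart with 8, and 41.57% of promoters held 8 or fewer. The letters GGGCGG, each match of which contains a CG, were searched on both strands. They occurred 3 times in the DCK promoter, 3 times in each SLC29A1 promoter and once in that of UCK1. The UCK2 promoter held them 4 times and each DCTD promoter 2 times, whereas those of CDA, CMPK1 and SAMHD1 held none. Of all promoters, 44.95% held them. SLC29A2 and SLC28A3 are named only. The methylation of these stretches was not measured on the arrays.

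Between the cells, the uptake transporter SLC29A1 and the kinases UCK1, UCK2 and DCK read higher in MG cells under both treatments, by 0.25 to 0.95 on the log2 scale. The deaminases CDA and DCTD, the hydrolase SAMHD1 and, averaged over its probes, the kinase CMPK1 did not differ beyond 2 spot errors, and the transporter SLC29A2 read lower in MG cells beyond that error with 5-azacytidine but not with vehicle. Past 2 spot errors, 4 of the 9 measured members differed with vehicle and 5 with 5-azacytidine, beside 54.2% and 53.6% of all genes. The shares are near each other, so this sorting is no result about the group. Past 2 software errors, 3 members differed with vehicle (UCK1, DCK and SLC29A1) and 2 with 5-azacytidine (UCK1 and SLC29A1). The share of all genes past that error was not counted. After 5-azacytidine, no member passed 1.5-fold in either cell type. Of all genes, 3.02% were higher and 2.1% lower in MG cells, and 1.9% and 1.68% in non-MG cells.

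**Figure D1:**
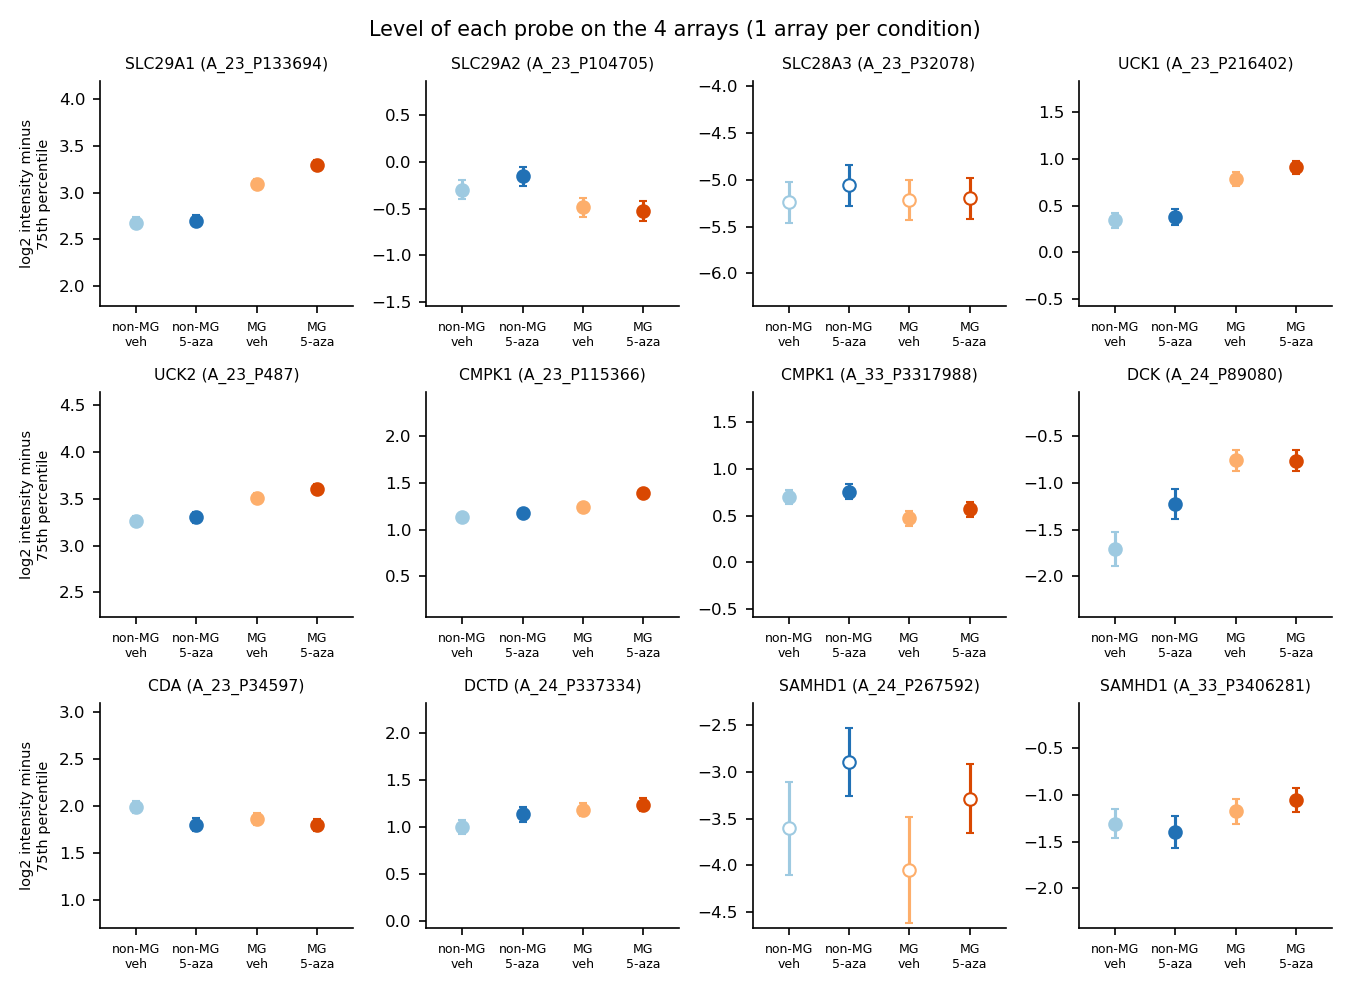
Level of each of the 12 probes on the 4 arrays, as log2 intensity minus the 75th percentile of the array, with 1 point per array and the spot error as a bar. All panels span the same range of log2 units, and open circles are signals not well above background. For SLC29A1, UCK1, UCK2, DCK and DCTD both MG points lie above both non-MG points. The same holds for the SAMHD1 probe well above background and the CMPK1 probe with 10 spots. For DCTD and SAMHD1 no neighbouring levels differ beyond 2 spot errors. Both MG points of SLC29A2 and of the CMPK1 probe with 1 spot lie below both non-MG points, and CDA has neither order.

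SLC29A1 encodes the equilibrative nucleoside transporter ENT1, which lets cytidine analogs pass the plasma membrane along their gradient. Its probe A_23_P133694 gave an intensity of 556 in non-MG cells with vehicle, 488 in non-MG cells with 5-azacytidine, 842 in MG cells with vehicle and 946 in MG cells with 5-azacytidine. Both MG arrays were thus above both non-MG arrays. On the normalized log2 scale, the MG cells were higher by 0.42 with vehicle, or 1.34-fold, with a spot error of 0.08 and a software error of 0.20. With 5-azacytidine the difference was 0.59, or 1.51-fold, with the same errors, which put SLC29A1 just past the 1.5-fold threshold and at percentile 94.6 of all genes. This call ended at 0.48 after quantile normalization and at 0.54 when the percentile was taken over spots, whereas the value was 0.72 with normexp and 0.85 with median centring. SLC29A1 was past 1.5-fold in 8 of 10 settings, a count that does not measure how firm the call is. With 1 bright probe, its value could not change in the settings that only filter or choose probes. The authors' values, which are scaled in nearly the same way, gave 0.60. In order of level, the non-MG arrays did not differ beyond 2 spot errors (0.02), whereas the step from them to the MG cells with vehicle (0.39) and the next step to the MG cells with 5-azacytidine (0.20) did.

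SLC29A2 encodes ENT2, the second equilibrative transporter of the plasma membrane. Its probe read 70.8 and 67.4 in non-MG cells and 70.4 and 66.8 in MG cells, with vehicle and 5-azacytidine, respectively. After normalization the MG cells lay lower, by -0.19 with vehicle (spot error 0.14) and -0.37 with 5-azacytidine (spot error 0.15), and the former turned to 0.01 after median centring. Only the latter exceeded 2 spot errors, neither exceeded 2 software errors (software error 0.22 each), and neither reached 1.5-fold. The 2 equilibrative transporters therefore lay on opposite sides of 0 in the comparison of the cells under both treatments, except after median centring with vehicle.

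SLC28A3 encodes the sodium-coupled concentrative transporter CNT3. Its only matched probe gave intensities between 2.25 and 2.65, none of them flagged as well above background. The dimmest probes that passed this flag read between 9.95 and 11.8. No ratio is given for it.

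UCK1 and UCK2 encode the uridine-cytidine kinases, which turn 5-azacytidine into its monophosphate. UCK1 gave intensities of 110 and 97.7 in non-MG cells with vehicle and 5-azacytidine, and of 170 and 181 in MG cells. The MG cells were thus higher under both treatments, by 0.44 with vehicle (1.36-fold) and 0.53 with 5-azacytidine (1.44-fold), each with a spot error of 0.11 and a software error of 0.21. These differences were past 2 errors of either kind and within 1.5-fold, at percentiles 89.0 and 92.4 of all genes. UCK2, whose enzyme is the form known for its high activity in tumour cells, read 834 and 741 in non-MG cells and 1126 and 1176 in MG cells. Its differences were 0.25 with vehicle and 0.31 with 5-azacytidine, each with a spot error of 0.08 and a software error of 0.20. Both kinases had the same order of arrays: the non-MG arrays did not differ beyond 2 spot errors, nor did the MG arrays, and the step between them did (0.41 for UCK1 and 0.21 for UCK2).

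CMPK1 encodes UMP-CMP kinase, which adds the next phosphate to the monophosphates of cytidine and its analogs. Its probes disagreed on the direction between the cells. The probe with 10 spots read 191, 170, 233 and 253 in the order non-MG vehicle, non-MG 5-azacytidine, MG vehicle and MG 5-azacytidine. The MG cells were thus higher by 0.11 with vehicle and 0.21 with 5-azacytidine (spot error 0.03 each). The SD between its own spots was 0.18 on the MG vehicle array, with 9 spots kept, and 0.06 to 0.08 on the other arrays. The spot error with vehicle may therefore be too small. The probe with 1 spot read 141, 127, 137 and 143, which gave -0.23 and -0.19 (spot error 0.11 each). Their mean was -0.06 with vehicle and 0.01 with 5-azacytidine, with a spot error of 0.06, and no neighbouring levels differed beyond 2 spot errors. No difference of CMPK1 between the cells is therefore described.

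DCK encodes deoxycytidine kinase, which phosphorylates deoxycytidine and decitabine, the deoxy form of 5-azacytidine, rather than 5-azacytidine itself. Its single probe A_24_P89080 read 26.6 in non-MG cells with vehicle, 32.1 in non-MG cells with 5-azacytidine, 58.2 in MG cells with vehicle and 56.8 in MG cells with 5-azacytidine. The MG arrays were nearly equal and above both non-MG arrays. With vehicle the MG cells were higher by 0.95, or 1.93-fold, with a spot error of 0.21 and a software error of 0.24, which was the largest difference among the members and lay at percentile 98.9 of all genes. With 5-azacytidine the difference was 0.46, or 1.38-fold (spot error 0.20, software error 0.23), and within the threshold. The signals of DCK were low, between 26.6 and 58.2, and after the normexp background correction, which shrinks differences between low signals, the difference with vehicle fell to 0.39 and below 1.5-fold.

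CDA encodes cytidine deaminase, the main enzyme that inactivates cytidine analogs. It read 346 and 262 in non-MG cells and 358 and 334 in MG cells with vehicle and 5-azacytidine, respectively. The MG cells differed by -0.13 with vehicle and by less than 0.01 with 5-azacytidine, each with a spot error of 0.09, so that no difference beyond 2 spot errors was seen for the inactivating enzyme. DCTD encodes dCMP deaminase, which acts on the monophosphate of the deoxy form. It read 174 and 165 in non-MG cells and 224 and 227 in MG cells, and its differences of 0.19 and 0.10 lay within 2 spot errors of 0.10.

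SAMHD1 encodes a hydrolase that splits deoxynucleoside triphosphates, the triphosphate of decitabine among them. The probe that was well above background read 35.1 and 28.6 in non-MG cells and 43.6 and 46.4 in MG cells, with differences of 0.13 (spot error 0.20) and 0.34 (spot error 0.22). Its other probe read between 5.96 and 10.1 and was flagged as well above background on none. The levels of SAMHD1 did not differ beyond 2 spot errors between any neighbouring arrays in order of level.

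**Figure D2:**
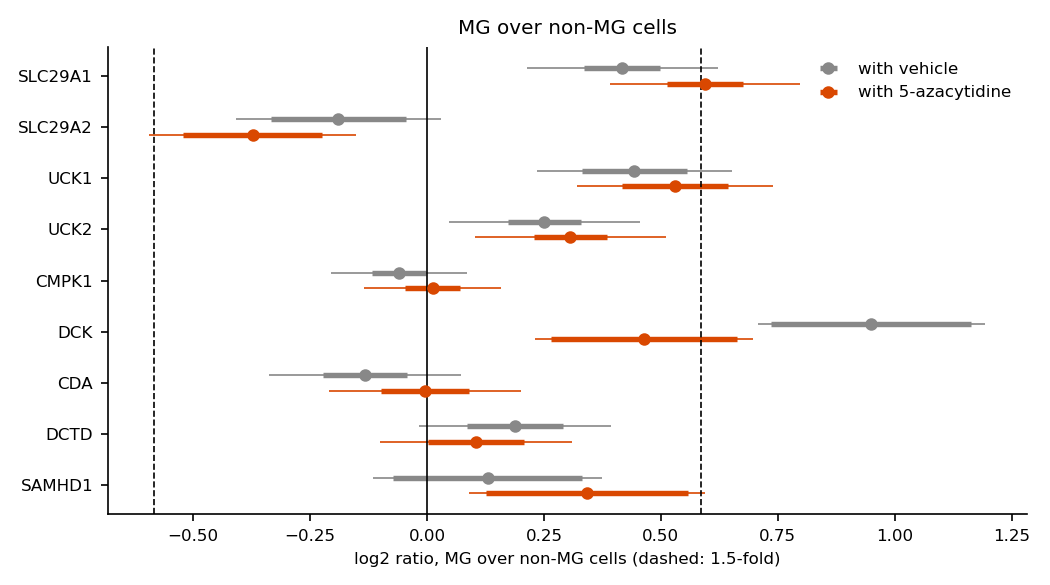
MG over non-MG cells for the 9 genes measured on all arrays, as log2 ratio with vehicle (grey) and with 5-azacytidine (orange). Thick bars are the spot error, thin bars the error of the scanner software, and dashed lines 1.5-fold. DCK with vehicle (0.95) lies clearly past the line and SLC29A1 with 5-azacytidine (0.59) on it.

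Over the 9 genes, 1 (DCK) was higher past 1.5-fold in MG cells with vehicle and 0 lower, where 892 of 15708 genes (5.68%) were higher and 1295 (8.24%) lower. With 5-azacytidine, 1 (SLC29A1) was higher and 0 were lower, where 902 genes (5.74%) were higher and 1151 (7.33%) lower. With so few members, 1 gene past the threshold is near these shares and is no result about the group. Past 2 spot errors, 4 of the 9 differed with vehicle beside 54.2% of all genes, and 5 beside 53.6% with 5-azacytidine. The median of the members was 0.19 with vehicle (range -0.19 to 0.95) and 0.31 with 5-azacytidine (range -0.37 to 0.59), whereas the medians of all genes were -0.01 and 0.02. Median centring, which put the median of all genes at 0.18 and 0.27, gave 3 members higher with vehicle (UCK1, DCK and SLC29A1), beside 13.54% of all genes higher and 3.826% lower, and 4 with 5-azacytidine (these and SAMHD1), beside 19.13% higher and 2.527% lower.

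Both MG arrays were above both non-MG arrays for 6 of the 9 genes (UCK1, UCK2, DCK, DCTD, SLC29A1 and SAMHD1), a pattern that 32.3% of all genes had, and below for 1 (SLC29A2), as for 30.8% of all genes. Of 34 related genes of pyrimidine transport, metabolism and drug action, described below, 21 were above in this way and 4 below. The pattern is thus not particular to the members. The higher members held a transporter, kinases, the deaminase DCTD and the hydrolase SAMHD1. The lower member was the other equilibrative transporter, and CMPK1 and CDA were in neither group. The comparisons with vehicle and with 5-azacytidine use different arrays, whereas each comparison of cells shares 1 array with each comparison of treatments.

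**Figure D3:**
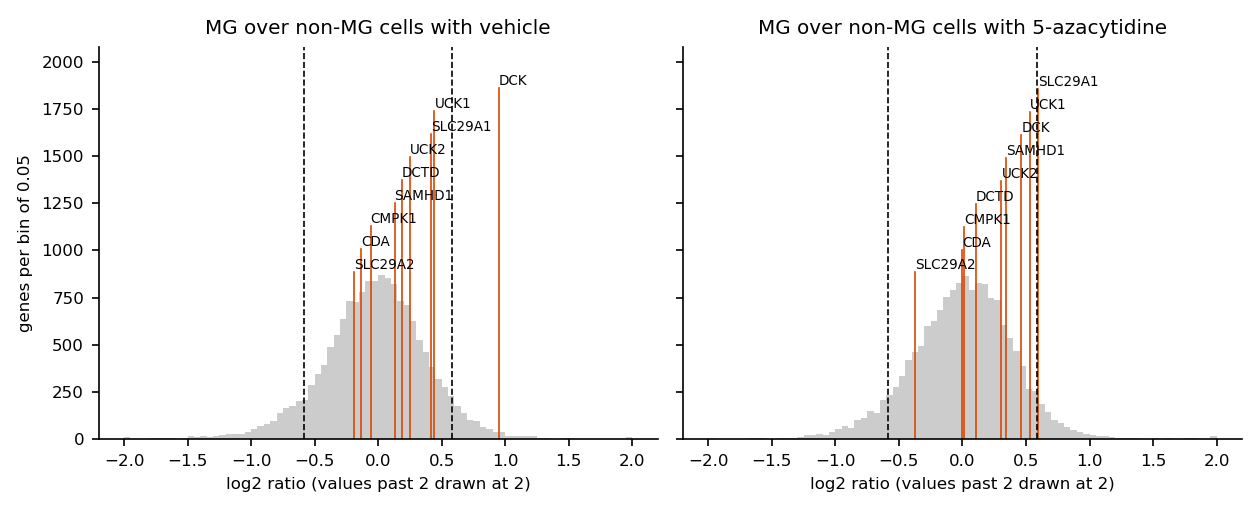
Distribution over 15708 genes of the log2 ratio between MG and non-MG cells (grey bars, genes per bin of 0.05), with each member as an orange line whose height only sets its label. Dashed lines are 1.5-fold. With vehicle DCK lies in the upper tail and the other members within the lines. With 5-azacytidine SLC29A1 lies on the upper line.

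Treatment with 5-azacytidine took none of the 9 measured transcripts past 1.5-fold in either cell type. In MG cells 0 of 9 were higher and 0 lower past 1.5-fold, where 474 of 15708 genes (3.02%) were higher and 330 (2.1%) lower, and the ratios ran from -0.07 for CDA to 0.20 for SLC29A1 with a median of 0.10. In non-MG cells 0 of 9 were higher and 0 lower, where 298 genes (1.9%) were higher and 264 (1.68%) lower, and the ratios ran from -0.19 for CDA to 0.48 for DCK with a median of 0.04. The medians of all genes were -0.02 and -0.04. At these shares fewer than 1 of 9 genes would pass, so that counts of 0 say little about the group.

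Past 2 spot errors, SLC29A1 (0.20, spot error 0.08) and CMPK1 (0.12, spot error 0.06) were higher after treatment of MG cells, beside 33.9% of all genes. CDA (-0.19, spot error 0.09) was lower after treatment of non-MG cells, beside 31.9% of all genes. None of them exceeded 2 software errors.

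The treatment ratios of the cells were subtracted to see whether the response differed. The difference of MG minus non-MG cells was past 1.5-fold for 0 of 9 genes, beside 936 of 15708 genes (5.96%), and had a median of 0.07 beside 0.02 for all genes. It ran from -0.49 for DCK to 0.21 for SAMHD1. DCK rested on a ratio of 0.48 in non-MG cells (spot error 0.24), where its level was lowest, and of less than 0.01 in size in MG cells (spot error 0.16), and its difference had a spot error of 0.29 and a software error of 0.34. DCK, SLC29A2 and SAMHD1 had ratios of opposite sign in the cells, and for 0 of the 3 were both ratios past 2 spot errors.

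**Figure D4:**
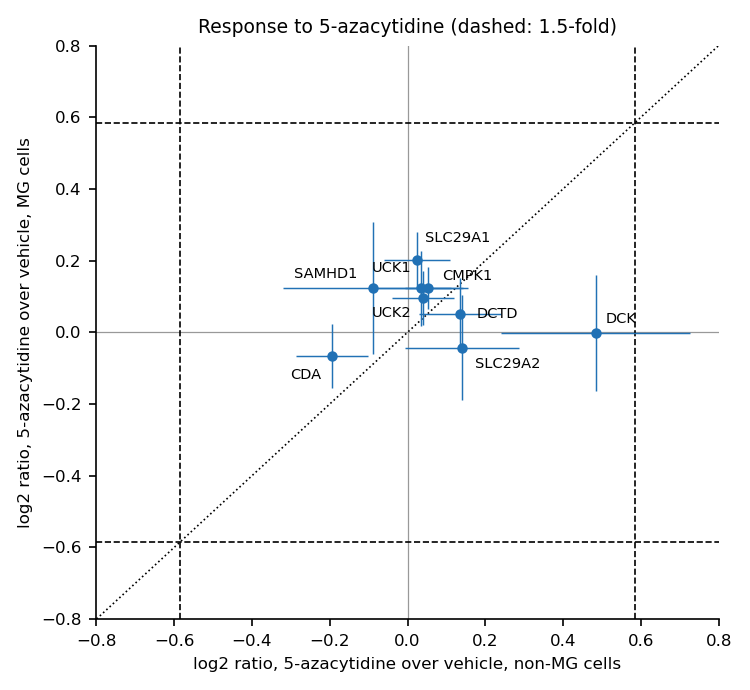
Log2 ratio of 5-azacytidine over vehicle in non-MG cells (horizontal axis) and in MG cells (vertical axis) for the 9 genes, with spot errors as bars, 1.5-fold as dashed lines and equal response as the dotted line. All points lie within the dashed lines, and DCK lies farthest from the dotted line, with 0.48 in non-MG cells.

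A list of 43 other genes of pyrimidine transport, metabolism and drug action was examined beside the members, of which 34 were well above background on all 4 arrays. In MG cells with vehicle 5 were higher past 1.5-fold (DUT, RRM2, UMPS, CTPS1 and TYMS) and 1 was lower (NT5M), beside 5.68% and 8.24% of all genes. With 5-azacytidine 4 were higher (NT5E, DCTPP1, RRM2 and CTPS1) and 0 lower, beside 5.74% and 7.33%. The medians of the list were 0.30 and 0.20. After treatment 1 of 34 was higher in MG cells (UPP1, uridine phosphorylase), beside 3.02% of all genes, and 0 passed 1.5-fold in non-MG cells, beside 1.9% higher and 1.68% lower.

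RRM2 and CTPS1 were the genes of the list past 1.5-fold between the cells under both treatments. RRM2 encodes the small subunit of ribonucleotide reductase, the enzyme that makes deoxynucleotides and also converts 5-azacytidine diphosphate to its deoxy form. It read 242 and 227 in non-MG cells and 525 and 530 in MG cells, so that the MG cells were higher by 0.94 with vehicle and 0.87 with 5-azacytidine, each with a spot error of 0.09, whereas the treatment ratios were 0.05 in MG cells and 0.12 in non-MG cells.

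CTPS1 encodes CTP synthase, which makes CTP, the nucleotide whose place the drug takes in RNA. The MG cells were higher by 0.77 with vehicle and 0.73 with 5-azacytidine (spot error 0.05 each). Its probes differed in size, with 1.09 for one and 0.44 for the other with vehicle, and had the same direction under both treatments.

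The drug's targets, the DNA methyltransferases, were all measured. DNMT1, the maintenance enzyme, read 544 and 512 in non-MG cells and 780 and 760 in MG cells. The MG cells were higher by 0.34 with vehicle and 0.21 with 5-azacytidine (spot error 0.08 and software error 0.20 each). Both differences lay within 2 software errors. The de novo enzyme DNMT3B differed by 0.11 and -0.05, and DNMT3A, over 2 probes, by -0.22 and -0.36, and 0 of the 3 enzymes, averaged over their probes, passed 1.5-fold in any of the 4 comparisons. The DNMT3A probes disagreed in size with 5-azacytidine, with -0.70 for one, which is past 1.5-fold, and -0.02 for the other. The treatment ratio of DNMT1 was less than 0.01 in size in MG cells and 0.13 in non-MG cells. Another DNMT3A probe was well above background only in MG cells with 5-azacytidine, at an intensity of 27.8, at least 2.18-fold over non-MG cells with 5-azacytidine and at least 2.13-fold over MG cells with vehicle.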

How the data were processed

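Per the labels, total RNA was labelled with Cy3 and hybridized to one-colour arrays. The labels name RNAiso Plus and the methods of the study an RNeasy kit for the extraction. For each array the authors deposited a file of Agilent Feature Extraction 11.5.1.1, with a background-corrected, linear intensity for every spot and flags, not normalized between arrays, and a table of log2 values for 24189 probes, centred per probe, of which 10 of the 12 member probes are part. Its differences between arrays equalled those of the log2 intensities less a constant, within 0.01 for 100% of 24161 probes, which is close to scaling by the 75th percentile. No fold threshold is stated.

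Here the log2 intensity less the 75th percentile of its array over non-control probes was computed after leaving out 5 of 50599 probes with outlier spots only. Spots of a probe, and the probes of a gene that were well above background on all 4 arrays, were averaged, and a gene was counted past 1.5-fold. Probes were named through the RefSeq annotation of GRCh38.p14, whereas the design refers to hg19, so no probe positions are given. A bound ("at least") is the brighter signal over the dimmest passing signal of the other array, or the probe's own signal where higher, after scaling. The simple counting was tried on a pair of simulated arrays, built from the mean level of each probe over the 4 arrays with spot error only. Planted changes were 1.5 in size on the log2 scale, larger than any difference of a member. Among 15708 genes, 200 of 200 changed ones were recovered. Of 15508 unchanged genes 90 passed, 87 of them among 2011 dim genes. Recovery of changes near 1.5-fold was not tested, and differences between cultures and labellings were left out. Arrays were grouped by title, and their number limits the precision.

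The members and lists were chosen with earlier results of these data known. All members are named. Of the related list, those past 1.5-fold in the same direction between the cells under both treatments, or after treatment in both cells, and the DNA methyltransferases are named with values. Others are named to spell out a count of 5 or fewer, after their values were seen. The tools were Python 3.11.15 with pandas 2.3.3, numpy 2.4.6 and matplotlib 3.10.9, and limma 3.58.1 in R 4.3.3. The alternatives were quantile normalization, normexp on the median spot signals (offset 50), median centring, the study's filter on the lowest 20th percentile, no filter, the authors' values, signals raised to the detection limit, probes in place of genes, the brightest probe, 2-fold and 1.4-fold thresholds, and the percentile over spots.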

Additional observations from a re-analysis of the deposited data

How the results depend on the processing

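No member changed to a called difference of the opposite sign under any alternative. Of 324 ratios of single genes, 279 moved by less than their spot error and 45 by more. Many could not move, because settings that only filter or choose probes leave a gene with 1 bright probe unchanged. The authors' values also use nearly the same scaling, so these counts say little about robustness. Of 148 other results, which were counts and medians, 133 stayed the same and 15 moved. A count stayed the same if it was equal to the main count or within 1.5-fold of it. A median did so if it moved by less than the mean spot error of the members. With normexp 0 members were higher with vehicle, and the median with 5-azacytidine was 0.14. With quantile normalization 0 were higher with 5-azacytidine, and the median was 0.16. With median centring 3 were higher with vehicle (median 0.38) and 4 with 5-azacytidine (median 0.56). The median with 5-azacytidine was 0.058 with no filter and 0.10 with signals raised to the detection limit. At 2-fold 0 members were higher under either treatment. At 1.4-fold 2 were higher with 5-azacytidine (UCK1 and SLC29A1), and the treatment ratios differed between the cells for 1 (DCK). With the percentile over spots, chosen after seeing the data, 0 were higher with 5-azacytidine. Normexp also turned the split of all genes between the cells, to 2.96% higher and 2.088% lower with vehicle and 4.59% and 1.159% with 5-azacytidine. Matching by gene name was not run, because the columns used hold accessions and probe names. The causes were not tested beyond what each setting itself does. No paired analysis was possible because the conditions share fewer than 2 replicate numbers. Blocking on treatment or cell type was not run. Precision is limited by that number and by dim signals: the spot error was 0.20 at log2 intensities from 4 to 5, where DCK lay in untreated non-MG cells, and 0.05 from 10 to 11.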

Other observations

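Among the related genes with a signal on some arrays only, SLC28A2, which encodes the concentrative nucleoside transporter CNT2 and was chosen after its values were seen, was well above background only in MG cells with vehicle. Its 1 spot read 39.2 there, against 3.49 in non-MG cells with vehicle, 2.34 in non-MG cells with 5-azacytidine and 2.33 in MG cells with 5-azacytidine. The signal was at least 3.44-fold over non-MG cells with vehicle and at least 3.24-fold over MG cells with 5-azacytidine. It rests on a single spot of 1 array, and whether it would recur was not tested.

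Other related genes were at or near background throughout. SLC28A1, which encodes CNT1, ABCC11 and ABCG2, which encode efflux pumps, and UPP2, DPYS and UPB1, which encode enzymes of pyrimidine breakdown, were well above background on no array. UPP1, chosen here after its values were seen, was higher after treatment in both cells, by 0.60 in MG and 0.51 in non-MG cells, with spot errors of 0.07 each, and the latter is within 1.5-fold.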
